A study of Mus musculus with 2 samples.

Results

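The genes described here are 44 named genes of NF-kB signalling, cytokine reception and inflammation, out of 55487 genes in the deposited tables. They were listed by name, with earlier results of these data known, and fall into 6 roles: subunits of NF-kB, inhibitors of NF-kB with the IKK kinase complex, TNF-family receptors, interleukin and related receptors, Toll-like receptors with adaptors and kinases, and inflammatory products. The study addressed the dependence of gene expression on the Myt zinc-finger transcription factors in islet beta cells, the insulin-secreting cells of the pancreas, at normal blood glucose. RNA was sequenced from beta cells of mutant mice 2 months old, with males and females pooled. The islets were dissociated with trypsin and the cells were purified by fluorescence-activated sorting. There is 1 group of 2 libraries, called library 2 (labelled as the duplicate) and library 1. Both carry RipCre, a Cre recombinase driven by the rat insulin promoter, together with the floxed alleles MytF/F, Myt2F/F and Myt3F/F. Myt, Myt2 and Myt3 are taken here as Myt1, Myt1l and St18, the symbols in the files. Beta cells of control mice were not analysed here. No value therefore compares mutant with control cells, and every difference is between libraries of the same genotype. The labels do not say whether the duplicate came from other mice, so a p-value measures only the reads of these libraries, whose spread may be technical.

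NF-kB is a family of dimeric transcription factors. In a resting cell, inhibitor proteins of the IkB family hold most of it in the cytoplasm, and signals from TNF, interleukin-1 and Toll-like receptors activate the IKK complex, which marks the inhibitors for destruction and frees the dimers to enter the nucleus. Active NF-kB induces its own inhibitors, among them Nfkbia and Tnfaip3, so their transcripts are commonly read together with the signal. In beta cells the pathway is best known as the route by which interleukin-1 beta acts, and its products there include nitric oxide synthase and chemokines.

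Library 2 held 39003197 counted reads and library 1 held 50121771, and 13566 genes reached 1 CPM (counts scaled to a common library total) in both. All 10 beta-cell markers were detected in both libraries, with a summed level of 184961 CPM in library 2, against 180874 CPM in library 1. The targeted genes were all counted. Myt1 stood at 65.4 CPM in library 2 against 77.6 CPM in library 1, Myt1l at 39.0 CPM in library 2 against 44.5 CPM in library 1, and St18 at 56.5 CPM in library 2 against 72.7 CPM in library 1. These counts cover whole genes and the labels do not name the floxed exons, so they do not check the deletion. Levels below compare genes as TPM, reads per gene length scaled to a common sum, and compare libraries as CPM. In sorted but bulk cells, fewer cells of a type and less RNA per cell cannot be told apart.

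The promoters of the members are shown first, because several of these genes are known targets of the factor whose pathway they belong to. RefSeq promoter windows on GRCm38.p6, each running from 250 bases before a transcription start to 50 after it, were found for 32 members (42 windows). Alox15, Ccl2, Cxcl16, Ikbkb, Il10rb, Il17ra, Nfkb1, Nfkbiz, Nos2, Relb, Tlr4 and Tnfrsf11b had no entry. Each window was searched on both strands for the kB consensus, the 10-letter motif that NF-kB dimers bind, and capitals mark its matches. The first 2 windows belong to feedback inhibitors, the next to a subunit gene and the last 2 to a receptor and a chemokine with 2 or more matches each. Their coordinates are chr12:55492598-55492897 on the minus strand for Nfkbia, chr10:19015361-19015660 on the minus strand for Tnfaip3, chr19:46304487-46304786 on the plus strand for Nfkb2, chr3:83841559-83841858 on the minus strand for Tlr2 and chr5:90890995-90891294 on the plus strand for Cxcl1.
Nfkbia: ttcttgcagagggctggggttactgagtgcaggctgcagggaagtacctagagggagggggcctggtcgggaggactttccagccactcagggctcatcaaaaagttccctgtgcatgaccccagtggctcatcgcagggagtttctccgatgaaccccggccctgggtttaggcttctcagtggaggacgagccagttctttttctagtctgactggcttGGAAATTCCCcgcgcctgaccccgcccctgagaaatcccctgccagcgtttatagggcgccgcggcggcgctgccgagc
Tnfaip3: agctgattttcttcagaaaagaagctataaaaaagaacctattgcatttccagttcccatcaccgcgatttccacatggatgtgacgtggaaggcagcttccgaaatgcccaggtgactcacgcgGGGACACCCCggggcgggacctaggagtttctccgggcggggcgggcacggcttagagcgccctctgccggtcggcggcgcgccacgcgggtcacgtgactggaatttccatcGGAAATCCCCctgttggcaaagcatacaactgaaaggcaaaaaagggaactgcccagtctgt
Nfkb2: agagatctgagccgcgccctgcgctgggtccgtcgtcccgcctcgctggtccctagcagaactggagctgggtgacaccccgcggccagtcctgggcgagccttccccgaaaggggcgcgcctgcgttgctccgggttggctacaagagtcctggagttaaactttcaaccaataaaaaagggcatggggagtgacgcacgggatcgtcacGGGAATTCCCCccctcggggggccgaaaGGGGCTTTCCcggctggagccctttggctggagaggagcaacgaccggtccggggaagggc
Tlr2: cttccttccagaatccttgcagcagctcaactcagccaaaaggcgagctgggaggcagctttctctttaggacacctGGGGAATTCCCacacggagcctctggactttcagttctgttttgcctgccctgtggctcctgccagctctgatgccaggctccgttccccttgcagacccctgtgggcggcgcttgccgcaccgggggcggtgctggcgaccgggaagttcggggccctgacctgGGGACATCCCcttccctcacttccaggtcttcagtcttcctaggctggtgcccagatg
Cxcl1: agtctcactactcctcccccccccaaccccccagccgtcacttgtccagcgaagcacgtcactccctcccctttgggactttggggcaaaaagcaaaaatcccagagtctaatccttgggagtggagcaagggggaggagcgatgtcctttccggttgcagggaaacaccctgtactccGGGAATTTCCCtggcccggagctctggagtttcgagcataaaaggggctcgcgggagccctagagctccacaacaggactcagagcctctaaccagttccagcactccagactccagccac

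Counted from the transcription start as 0, the match of Nfkbia began at −29, and those of Tnfaip3 began at −125 and −12. The Nfkb2 window shown held a pair of overlapping matches at −39 and −38 and another at −11. Further Nfkb2 windows, from other starts, held matches at −236 and 10 and at −225, those at 10 and −225 being the same site. Overlapping pairs, shifted by 1 base, also began at −173 and −172 in Tlr2 and at −71 and −70 in Cxcl1, and Tlr2 held a further match at −8. In all, the kB consensus was found in 11 of the 32 member genes with a window (34.4%), against 5.14% of 27025 genes and 6.23% of 10257 detected genes. The 11 were the subunit genes Nfkb2 and Rel, the inhibitors Nfkbia, Nfkbie and Tnfaip3, the receptors Il1r1, Tlr2 and Tlr3, the adaptor Traf3, the chemokine Cxcl1 and the inflammasome gene Nlrp3. Rela, whose subunit is the main activator, had no match in its window. The members' windows were richer in CpG, with a median of 14.5 CpG per window against 7 over all windows, and the motif was found in 5.74% of windows with 10 or more CpG and in 3.55% of the others. The GAS motif TTCNNNGAA, an element of promoters that respond to interferon gamma, was found in 6 of the 32 (18.8%; Chuk, Myd88, Nfkb2, Ripk1, Tnfrsf1a and Tnfrsf1b), against 9.55% of all genes. A match describes letters in a window and not binding. Several members are known as targets of NF-kB, so the shares are no independent observation, and they were not tested.

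**Figure D1:**
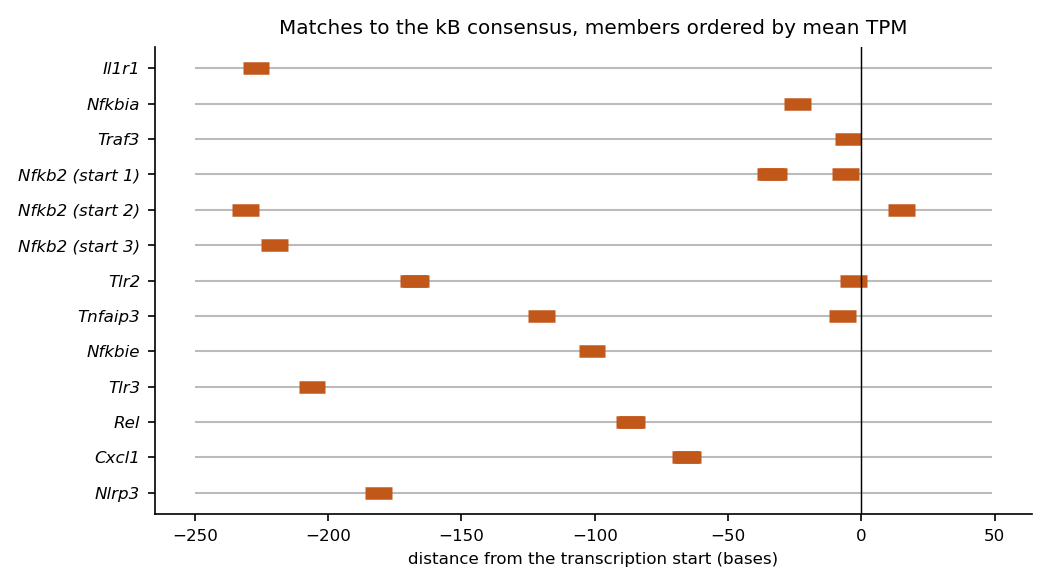
Matches to the kB consensus in RefSeq promoter windows of the 11 members that hold one, ordered by mean TPM from top to bottom. The horizontal axis is the distance from the transcription start in bases, grey lines are the windows and orange blocks are matches, with overlapping matches drawn over each other. The matches of Nfkbia, Traf3, Tlr2 and Tnfaip3 nearest the start begin between −29 and −8, while those of Il1r1 and Tlr3 begin at −232 and −211.

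Most of the receptors and signalling genes were detected in these cells, while most of the inflammatory products were under the detection limit. Of the 44 members, 34 (77.3%) reached 1 CPM in both libraries, against 55.3% of all 21974 protein-coding genes, the class to which all members belong. The median mean level of the 34 was 19.0 TPM, against 14.8 TPM over all 13566 detected genes. Over all 44 it was 11.9 TPM. Among the 34, 20 lay above the median of detected genes and 14 below it. Alox15, Il1r1, Tnfrsf11b, Nfkbiz, Il6ra and Nfkbia were among the top 10% of detected genes by mean TPM. The 10 members under 1 CPM were 6 of the 9 products, together with Tnfrsf1b, Il22ra1, Ripk3 and Tlr4. Summed over the members, the level was 2179 CPM in library 2, against 2374 CPM in library 1.

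**Figure D2:**
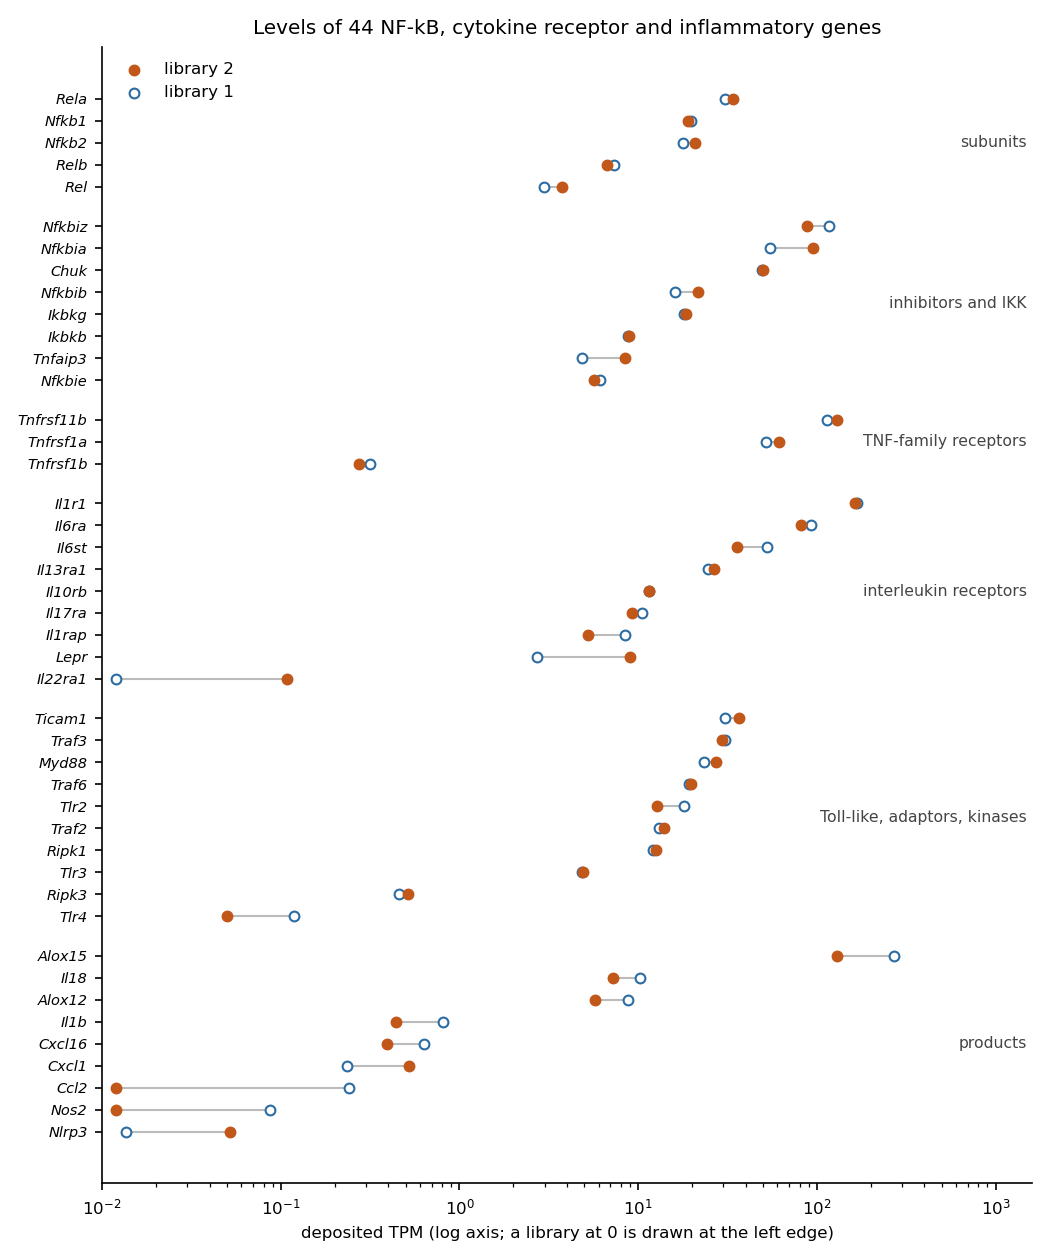
Deposited TPM of each of the 44 members on a log axis, filled orange points for library 2 and open blue points for library 1, grouped by role from top to bottom and ordered by mean TPM within a role. Every subunit and every inhibitor or IKK gene lies above 2 TPM in both libraries, whereas 6 of the 9 products lie under 1 TPM, with Ccl2 and Nos2 at 0 in library 2 and Il22ra1 at 0 in library 1.

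Between the libraries, 2 of the 40 members with 10 or more reads summed were called, Lepr higher and Alox15 lower in library 2. A call needed an adjusted p under 0.05 by the exact binomial test and a 2-fold ratio. Over all 20681 genes tested, 4.31% were called, 1.91% higher and 2.4% lower in library 2, so the members' count is near that background. Among detected genes, which leave out the lowest counts, 2 of 34 members and 235 of 13566 genes were called. There the members' share was above that of all genes, but it rests on 2 genes and was not tested.

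All 5 subunits of NF-kB were detected, and Rela was the highest. Rela, which carries the transactivation domain of the classical dimer, stood at 34.0 TPM in library 2 and 30.7 TPM in library 1, a mean of 32.4 ± 2.36 TPM (SD, n = 2). Nfkb1, the precursor of its usual partner, stood at 18.9 TPM in library 2 against 19.7 TPM in library 1 (19.3 ± 0.585 TPM). Nfkb2, the precursor used by the alternative pathway, stood at 20.8 TPM in library 2 against 17.7 TPM in library 1 (19.3 ± 2.15 TPM). Nfkb1 and Nfkb2 therefore had the same mean TPM, and their order by TPM differed between the libraries. Nfkb2 overlaps antisense genes over 18.1% of its exon length, and without strand information those reads cannot be assigned with certainty. Relb, the partner of the processed Nfkb2 product, was lower at 6.97 ± 0.451 TPM. Rel, best known from lymphocytes, was the lowest subunit at 3.36 ± 0.572 TPM. Between the libraries no subunit differed by 2-fold. Rel had 10.3 CPM in library 2, against 8.02 CPM in library 1, a log2 ratio of 0.37 with an adjusted p of 0.00166 by the exact binomial test with Benjamini-Hochberg adjustment. Rela (log2 ratio 0.17) and Nfkb2 (0.25) were also higher in library 2, at adjusted p values of 0.00529 and 4.65e-05 by the same exact test, while Nfkb1 (−0.04) and Relb (−0.11) gave 0.334 and 0.425.

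All 8 inhibitors of NF-kB and IKK genes were detected as well. Nfkbiz, a nuclear IkB protein that acts as a cofactor at some target genes, was the highest at 87.8 TPM in library 2 and 118 TPM in library 1 (103 ± 21.03 TPM). Nfkbia, the classical inhibitor IkB-alpha, stood at 95.6 TPM in library 2 and 54.9 TPM in library 1 (75.2 ± 28.8 TPM). Chuk, the kinase IKK-alpha, stood at 49.9 TPM in library 2 against 49.4 TPM in library 1 (49.7 ± 0.364 TPM). The Chuk values were nearly equal, those of the highest inhibitors were not, and the differences of Nfkbiz and Nfkbia had opposite signs, so that Nfkbia was above Nfkbiz in library 2 and below it in library 1. The kinase Ikbkb (IKK-beta) averaged 8.85 ± 0.0419 TPM and the scaffold Ikbkg (NEMO) 18.4 ± 0.363 TPM. Ikbkb has the longest exon sequence of the members, 19078 bases in the annotation, and without length scaling it stood at 62.2 CPM in library 2 against 61.1 CPM in library 1. The remaining inhibitors were Nfkbib (18.8 ± 3.99 TPM), whose exons are overlapped by antisense genes over 16.4% of their length, Nfkbie (5.90 ± 0.335 TPM) and Tnfaip3 (6.66 ± 2.59 TPM), the ubiquitin-editing enzyme A20.

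Nfkbia and Tnfaip3, both feedback inhibitors with a kB match close to the start, had the highest ratios between the libraries within this role. Nfkbia (6 merged exons at chr12:55489410-55492647, minus strand) had 2204 reads in library 2 and 1608 in library 1, or 56.5 CPM in library 2 against 32.1 CPM in library 1. The ratio was 1.76-fold, with an exact 95% interval of 1.65 to 1.88 (log2 ratio 0.82). Tnfaip3 (9 merged exons at chr10:19000910-19015657, minus strand) had 879 reads in library 2 against 635 reads in library 1, or 22.5 CPM in library 2, against 12.7 CPM in library 1. Its ratio was 1.78-fold, interval 1.604 to 1.97 (log2 ratio 0.83). Both differed beyond counting error, with adjusted p values of 7.77e-66 and 2.67e-27 by the exact binomial test, but neither reached the 2-fold limit for a call. Members with a kB match differed among themselves between the libraries. Rel (log2 ratio 0.37) and Nfkb2 (0.25) were also higher in library 2, and Tlr3 (0.03), Il1r1 (−0.03), Traf3 (−0.04) and Nfkbie (−0.10) were near equality. Tlr2 was lower, with 14.2 CPM in library 2 against 19.8 CPM in library 1. Cxcl1 and Nlrp3, both higher in library 2, had few reads. Nfkbiz was lower in library 2, at 162 CPM against 214 CPM in library 1 (log2 ratio −0.40).

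Of the TNF-family receptors, the death-domain receptor and the decoy were abundant and the other TNF receptor was close to undetected. Tnfrsf11b, the secreted decoy receptor osteoprotegerin, stood at 130 TPM in library 2 and 115 TPM in library 1 (122 ± 10.6 TPM, n = 2). Tnfrsf1a, the receptor through which soluble TNF mainly signals, stood at 61.3 TPM in library 2 against 52.1 TPM in library 1 (56.7 ± 6.47 TPM). Tnfrsf1b, the other receptor of TNF, known mainly from immune and endothelial cells, had 15 reads in library 2 and 22 in library 1 (0.385 CPM in library 2 against 0.439 CPM in library 1). Tnfrsf1a was therefore above Tnfrsf1b by 223-fold per length in library 2 (exact 95% interval 135 to 400) and by 165-fold in library 1 (108 to 263). Both detected receptors were higher in library 2, by log2 ratios of 0.19 for Tnfrsf11b and 0.25 for Tnfrsf1a.

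Among the 9 interleukin and related receptors, 8 were detected and Il1r1 was the second most abundant member of all 44 by mean TPM. Il1r1, the signalling receptor of interleukin-1 (chr1:40225080-40317257, plus strand), stood at 163 TPM in library 2 and 169 TPM in library 1, a mean of 166 ± 3.80 TPM (n = 2). That placed it above 96.7% of detected genes. Il1rap, the accessory chain that Il1r1 needs to signal, stood at 5.21 TPM in library 2 against 8.41 TPM in library 1 (6.81 ± 2.26 TPM). Il1r1 exceeded its accessory chain by 31.3-fold per length in library 2 (29.2 to 33.6) and by 20.1-fold in library 1 (19.1 to 21.1). For the interleukin-6 pathway the ligand-binding chain was above the shared signalling chain: Il6ra stood at 81.1 TPM in library 2 against 92.3 TPM in library 1 (86.7 ± 7.90 TPM) and Il6st, or gp130, at 35.8 TPM in library 2 against 52.4 TPM in library 1 (44.1 ± 11.7 TPM). Their order was the same in both libraries. The remaining detected receptors averaged 25.6 ± 1.35 TPM for Il13ra1, 11.5 ± 0.0454 TPM for Il10rb, 9.89 ± 0.941 TPM for Il17ra and 5.86 ± 4.47 TPM for Lepr. Il10rb, a chain shared by receptors of the interleukin-10 family, is overlapped by another gene over 14.9% of its exon length, so its count is uncertain. Il22ra1, the ligand-specific chain of the interleukin-22 receptor, had 4 reads in library 2 and 0 in library 1, where a count of 0 allows up to 0.0599 CPM.

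Lepr, the leptin receptor, had the highest ratio of the 40 tested members between the libraries. It had 911 reads in library 2 and 347 in library 1, or 23.4 CPM in library 2 (exact 95% interval 21.9 to 24.9) against 6.92 CPM in library 1 (6.21 to 7.69). The ratio was 3.37-fold, interval 2.98 to 3.83 (log2 ratio 1.75, adjusted p 8.04e-92 by the exact binomial test), and it was called in all 8 alternative settings of the test. Lepr spans 22 merged exons at chr4:101717404-101815352 on the plus strand, and the counts do not separate its long and short forms. The chains of the interleukin-1 and interleukin-6 receptors did not follow it. Il1rap had 21.7 CPM in library 2, against 34.7 CPM in library 1 (log2 ratio −0.67), and Il6st had 146 CPM in library 2 against 211 CPM in library 1 (−0.53). Il1r1, with 382 CPM in library 2, against 390 CPM in library 1, had a log2 ratio of −0.03 that turned to 0.01 with TMM scaling, and an adjusted p of 0.141 by the exact test.

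The Toll-like receptors were lower than the adaptors Ticam1 and Myd88. Ticam1, the adaptor of Tlr3 and Tlr4 also called TRIF, stood at 36.8 TPM in library 2 and 30.7 TPM in library 1 (33.7 ± 4.35 TPM, n = 2). Traf3, a ubiquitin ligase that restrains the alternative NF-kB pathway, stood at 29.6 TPM in library 2 against 30.8 TPM in library 1 (30.2 ± 0.816 TPM). Myd88, the adaptor of the interleukin-1 receptor and most Toll-like receptors, stood at 27.2 TPM in library 2 against 23.2 TPM in library 1 (25.2 ± 2.83 TPM); 11.3% of its exon length overlaps an antisense gene, so its count is uncertain. Further signalling members averaged between 12.3 ± 0.260 TPM for the kinase Ripk1, 9.01% of whose exon length overlaps other genes, and 19.5 ± 0.388 TPM for the ubiquitin ligase Traf6, with Traf2 at 13.4 ± 0.591 TPM. Tlr2, which senses bacterial lipopeptides, was the highest receptor at 12.8 TPM in library 2 against 18.1 TPM in library 1 (15.5 ± 3.76 TPM). Tlr3, which senses double-stranded RNA, stood at 4.89 TPM in library 2 against 4.85 TPM in library 1 (4.87 ± 0.0343 TPM), with 7.32% of its exon length overlapped by an antisense gene. Tlr4, the receptor of endotoxin, had 4 reads in library 2 and 12 in library 1. Ripk3, the kinase that drives necroptosis with Ripk1, had 17 reads in library 2 against 19 reads in library 1 (0.436 CPM in library 2 against 0.379 CPM in library 1). Tlr2 was lower in library 2 at 14.2 CPM against 19.8 CPM in library 1 (log2 ratio −0.48), and none of the 10 genes of this role was called.

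The inflammatory products were dominated by a single lipoxygenase. Alox15, the 12/15-lipoxygenase that oxidises arachidonic acid, stood at 130 TPM in library 2 and 269 TPM in library 1. Its mean of 200 ± 98.1 TPM (n = 2) was the highest mean TPM of the 44. In library 2 alone it was below Il1r1, at 163 TPM, and by mean CPM it was also lower, at 178 CPM against 386 CPM for Il1r1. Alox12, the platelet-type lipoxygenase, stood at 5.71 TPM in library 2 against 8.81 TPM in library 1 (7.26 ± 2.20 TPM). Il18, a cytokine that many epithelial cells store as a precursor, stood at 7.25 TPM in library 2 against 10.2 TPM in library 1 (8.71 ± 2.08 TPM). All 3 products were lower in library 2 than in library 1, and the remaining 6 products were all under 1 CPM in both. Il1b, the cytokine that signals through Il1r1, had 12 reads in library 2 and 28 in library 1, or 0.439 TPM in library 2 against 0.807 TPM in library 1, so that the level of its receptor exceeded its own in both. The chemokine Cxcl16 had 17 reads in library 2 against 35 reads in library 1, with 18.3% of its exon length overlapped by an antisense gene, and the neutrophil chemokine Cxcl1 had 14 reads in library 2 against 8 reads in library 1. Nlrp3, the inflammasome sensor, had 3 reads in library 2 and 1 in library 1. Ccl2, a monocyte chemokine, had 0 reads in library 2 against 5 reads in library 1, and Nos2, the inducible nitric oxide synthase, had 0 reads in library 2 against 7 reads in library 1; a count of 0 in library 2 allows up to 0.0769 CPM. None of these products was called. The adjusted p values of Il1b, Cxcl16 and Cxcl1 by the exact test were 0.185, 0.254 and 0.188, and Ccl2, Nos2 and Nlrp3 had fewer than 10 reads summed and were not tested.

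Alox15 was the only member called lower in library 2. It had 4578 reads there and 12008 in library 1, or 117 CPM in library 2 (exact 95% interval 114 to 121) against 240 CPM in library 1 (235 to 244). The level in library 2 was lower by 2.04-fold, interval 1.97 to 2.11 (log2 ratio −1.03). The call depended on the setting: with TMM scaling the log2 ratio was −0.99, short of the 2-fold limit, and edgeR's exact test with a dispersion between the libraries did not call it. That dispersion was estimated from the same libraries taken as a single group, so it includes the differences tested. Alox12 (log2 ratio −0.61) and Cxcl16 lie on the same chromosome as Alox15, at chr11:70241457-70255353 and chr11:70453983-70459984 on either side of it (chr11:70344152-70352031), all on the minus strand. The exons of Alox15 are overlapped by no other gene and share no 50-base word with one, and those of Alox12 share 0.372% of their words, so their reads can be told apart.

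Read as ratios within a library, the members gave orders that mostly held in both libraries. In the subunits, Rela exceeded Relb by 5.12-fold per length in library 2 and 4.21-fold in library 1, and exceeded Rel by 9.03-fold in library 2 and 10.4-fold in library 1. Nfkb1 over Nfkb2 was 0.909 in library 2 (exact 95% interval 0.853 to 0.969) and 1.11 in library 1 (1.05 to 1.18), so that pair has no common order per length. By reads not scaled by length, Nfkb1 was above Nfkb2 in both, by 2.39-fold in library 2 and 2.92-fold in library 1. In the inhibitors, Nfkbia exceeded Nfkbib by 4.41-fold in library 2 and 3.43-fold in library 1 and Nfkbie by 16.9-fold in library 2, against 8.94-fold in library 1. The IKK kinases kept nearly the same ratio, with Ikbkb over Chuk at 0.178 in library 2 and 0.179 in library 1. Il6st over Il6ra was 0.442 in library 2 and 0.567 in library 1. The lower chain in each of these last pairs was the same in both libraries.

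In the Toll-like receptors, Tlr3 over Tlr2 was 0.382 in library 2 and 0.267 in library 1, and Tlr3 exceeded Tlr4 by 97.4-fold in library 2 (37.7 to 359) and 40.8-fold in library 1 (23.1 to 79.6). Myd88 over Ticam1 was 0.740 in library 2 and 0.758 in library 1, and Traf2 over Traf3 was 0.468 in library 2 and 0.423 in library 1. These adaptor ratios lay close together in the libraries. Ripk1 exceeded Ripk3 by 24.2-fold in library 2 and 26.6-fold in library 1, Alox15 exceeded Alox12 by 22.8-fold in library 2 and 30.5-fold in library 1, and Il18 exceeded Il1b by 16.5-fold in library 2 and 12.6-fold in library 1. Il17ra exceeded Il22ra1 by 84.9-fold in library 2 (33.1 to 312), and in library 1, where Il22ra1 had 0 reads, no ratio is given. Cxcl16 over Cxcl1 was 0.754 in library 2 (0.350 to 1.65) and 2.72 in library 1 (1.24 to 6.78), and at so few reads its order is not settled.

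**Figure D3:**
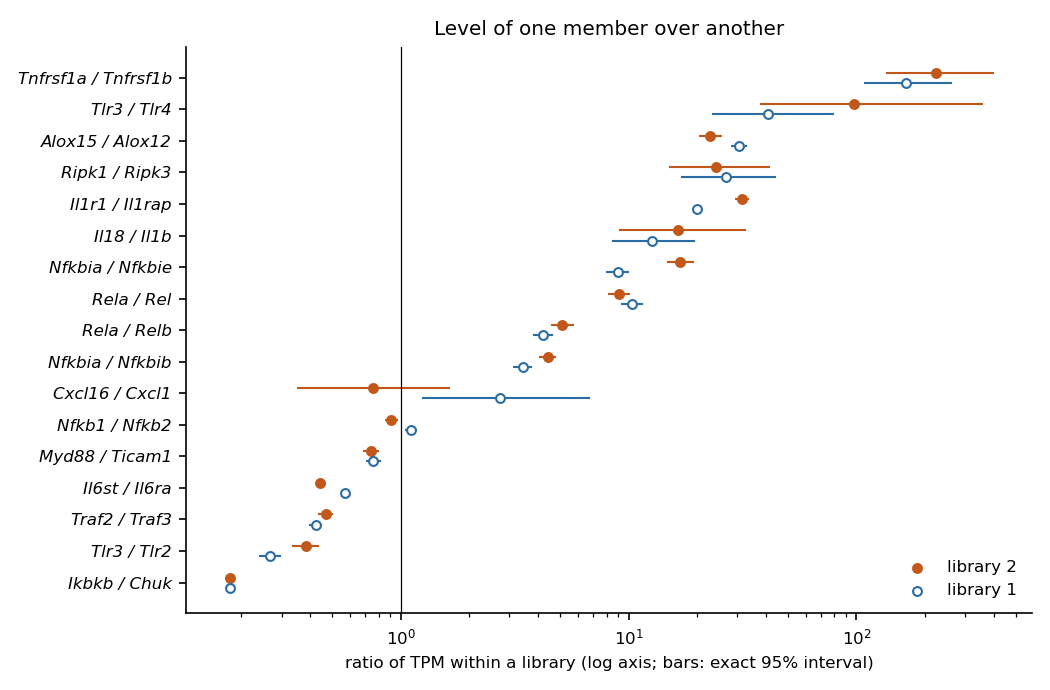
Ratio of the deposited TPM of one member over another within a library, on a log axis, with filled orange points for library 2, open blue points for library 1 and bars for the exact 95% binomial interval of the counts. Of the 17 pairs drawn, Nfkb1 over Nfkb2 and Cxcl16 over Cxcl1 lie on different sides of 1 in the libraries, at 0.909 in library 2 and 1.11 in library 1 and at 0.754 in library 2 and 2.72 in library 1. Intervals are widest for pairs with a gene of few reads, such as Tlr3 over Tlr4.

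Over the 40 tested members the median log2 ratio was 0.03, and over all genes tested it was −0.04, with 22 members higher and 18 lower in library 2. Without the fold limit, 20 of the 40 members (50%) had an adjusted p under 0.05 by the exact test, against 32.4% of all genes tested, a share that depends on read depth. The median absolute log2 ratio was 0.19 over the detected members and 0.14 over all detected genes. The absolute log2 ratio was under 0.5 for 27 of the 34 detected members and 0.5 or more for the remaining 7, Lepr, Tnfaip3 and Nfkbia in the one direction and Alox15, Il1rap, Alox12 and Il6st in the other. Summed by role, the subunits stood at 177 CPM in library 2, against 168 CPM in library 1, and the inhibitors and IKK genes at 475 CPM in library 2 against 484 CPM in library 1. The interleukin receptors summed to 912 CPM in library 2 against 1014 CPM in library 1 and the products to 130 CPM in library 2 against 258 CPM in library 1. The TNF-family receptors summed to 193 CPM in library 2 against 167 CPM in library 1 and the Toll-like receptors, adaptors and kinases to 292 CPM in library 2 against 283 CPM in library 1. The products, most of whose reads were of Alox15, differed most.

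**Figure D4:**
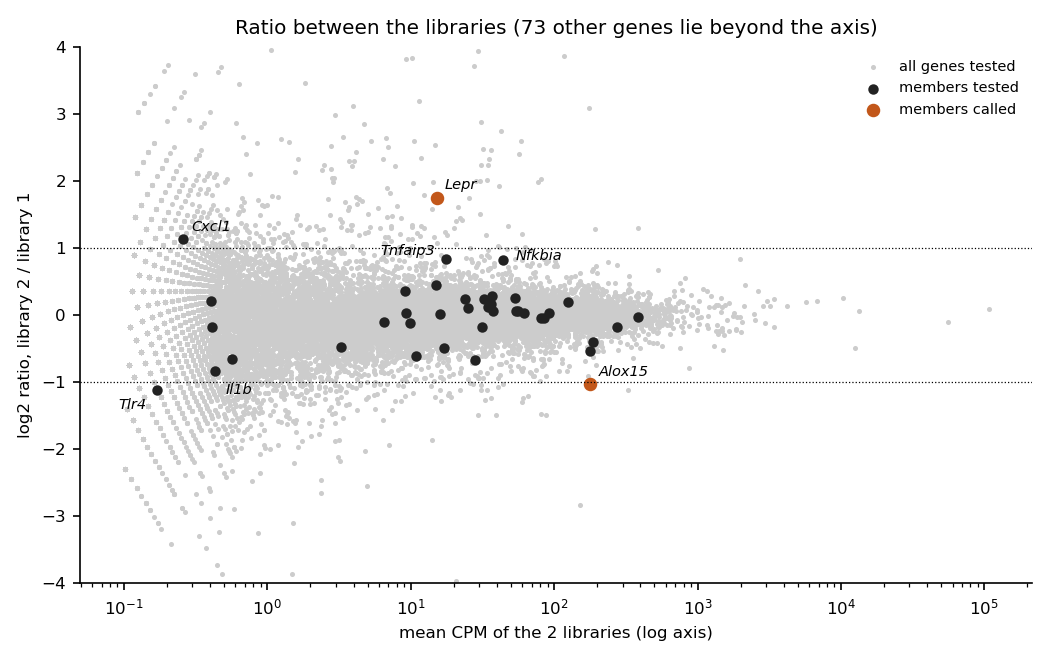
Log2 ratio of library 2 over library 1 against the mean CPM of the libraries on a log axis, with 0.5 read added. Grey points are all genes tested, black points the members tested and orange points the members called, and dotted lines mark 2-fold. Lepr at 1.75 and Alox15 at −1.03 lie beyond the lines, and Cxcl1 and Tlr4, also beyond them, did not pass the test.

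Further genes of the pathway that are no members were read from separate lists. Of 60 further components of the IKK, TNF, interleukin-1 and Toll pathways, 46 were detected and 57 tested, of which 1 was called higher and 1 lower in library 2 (median log2 ratio 0.02). The most abundant were Irak1, a kinase downstream of Myd88, at 154 ± 6.57 TPM, Tollip, which restrains interleukin-1 signalling, at 75.7 ± 0.0324 TPM, and Tab2, which links TRAF6 to its kinase, at 56.6 ± 1.78 TPM. The called genes were both under 1 CPM: Il1rl1, the interleukin-33 receptor, with 13 reads in library 2 and 3 in library 1, and Tlr1 with 0 reads in library 2 against 21 reads in library 1. Of 36 further NF-kB target genes, 17 were detected and 28 tested, with 3 called higher and 1 lower (median 0.11). The most abundant were the transcription factor Irf1 (46.4 ± 21.1 TPM), the A20-binding protein Tnip1 (44.04 ± 1.74 TPM) and the caspase-8 regulator Cflar (27.9 ± 1.38 TPM). The called genes were Tnfaip2 (20.6 CPM in library 2, against 2.23 CPM in library 1, log2 ratio 3.20), Cxcl10 (3.97 CPM in library 2 against 0.878 CPM in library 1, 2.17), Gadd45b (20.5 CPM in library 2 against 9.76 CPM in library 1, 1.07) and Ackr3 (0.103 CPM in library 2 against 0.379 CPM in library 1, −1.75). The target genes were thus called at 4 of 28 and the components at 2 of 57, against 4.31% of all genes tested.

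Of 44 further cytokine receptors and JAK-STAT mediators, 32 were detected and 39 tested. Of those 39, 1 was called higher in library 2, against 1.91% of all genes tested. The most abundant were Prlr, the prolactin receptor, at 294 ± 23.7 TPM, Socs3, an inhibitor of cytokine signalling, at 207 ± 9.001 TPM, and Cntfr, the receptor of ciliary neurotrophic factor, at 140 ± 31.6 TPM. The list as a whole had a median log2 ratio of −0.02. Of 37 further eicosanoid enzymes and receptors, 13 were detected and 29 tested, with a median of 0.02. The most abundant were Gpx4, which reduces lipid peroxides and shares many words with other genes (76.3 ± 5.47 TPM), Ptger3, a prostaglandin E receptor (73.2 ± 78.3 TPM), and Ptges3, a synthase and chaperone (61.5 ± 5.46 TPM). The mean of Ptger3 rests mostly on library 1, since its level was far lower in library 2. Ptger3 was the called gene, at 37.4 CPM in library 2 against 265 CPM in library 1 (log2 ratio −2.83), the same direction as Alox15. Over all genes tested 2.4% were called lower, so 1 of 29 is near that background. Alox8, another lipoxygenase, stood at 3.20 CPM in library 2 against 3.09 CPM in library 1.

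**Figure D5:**
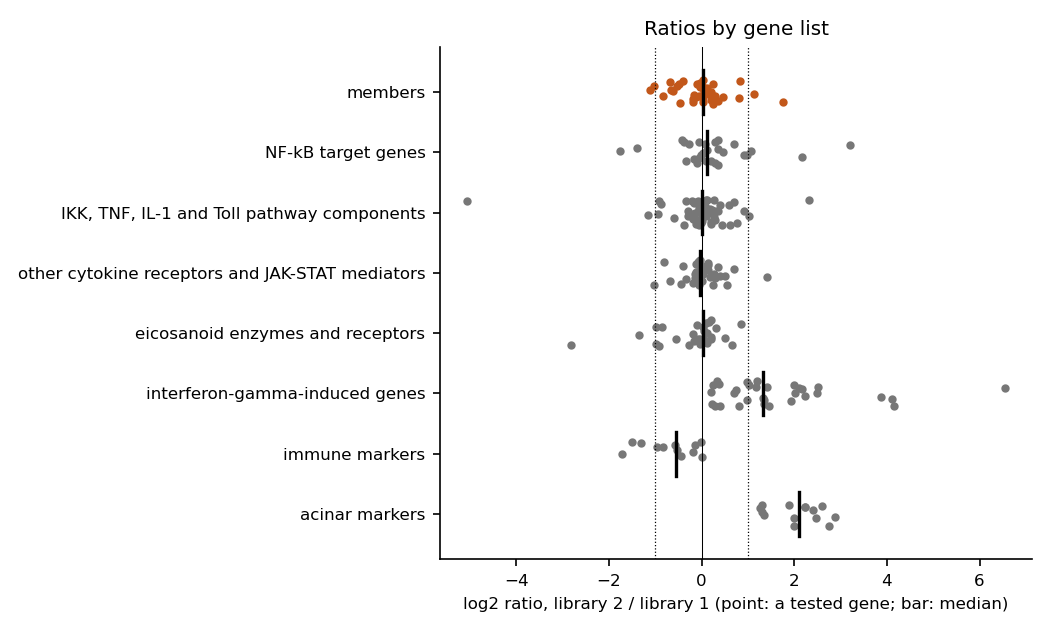
Log2 ratio of library 2 over library 1 for the tested genes of the members (orange) and of further gene lists (grey), with 0.5 read added. Each point is a gene, black bars are medians and dotted lines mark 2-fold; the point near −5 is Tlr1, which had 0 reads in library 2. The medians of the members and of the lists of components, other receptors and eicosanoid genes lie between −0.02 and 0.03 (0.03 for the members), that of the NF-kB targets at 0.11, those of the interferon-gamma-induced and acinar genes at 1.33 and 2.11, and that of the immune markers at −0.56.

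The genes listed as interferon-gamma-induced stood higher in library 2, and whether interferon gamma or another signal had a part was not tested. Of 34 such genes, 27 were detected and 32 tested, all 32 had a higher CPM in library 2, and 20 were called higher (median log2 ratio 1.33, summed level 2123 CPM in library 2, against 1169 CPM in library 1). Over all 20681 genes tested, 9016 had a higher ratio in library 2 and 1.91% were called higher. The list was chosen with earlier results of these data known, and it was not tested as a list. The most abundant were H2-K1 (307 ± 52.9 TPM), H2-D1 (269 ± 25.1 TPM) and B2m (200 ± 94.3 TPM), which present antigen. The highest ratios were those of Tgtp1 (4.67 CPM in library 2, against 0.0399 CPM in library 1), Tgtp2 (5.10 CPM in library 2 against 0.279 CPM in library 1) and Gbp2 (26.6 CPM in library 2 against 1.54 CPM in library 1), GTPases of cell-autonomous defence. Tgtp1 and Tgtp2 share most of their sequence, so how reads were divided between them is uncertain. Irf1 and Cxcl10 belong to this list and also to one of those above. The receptors of interferon gamma differed little, with Ifngr1 at 23.6 CPM in library 2, against 24.0 CPM in library 1 and Ifngr2 at 17.9 CPM in library 2 against 19.5 CPM in library 1. The part of these genes in the ratios of Lepr, Nfkbia and Tnfaip3 was not tested.

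Markers of other cells were counted beside these results. Of 15 immune markers, 4 were detected (C1qa, Cd74, H2-Aa and H2-Ab1), with a summed level of 53.9 CPM in library 2, against 63.8 CPM in library 1. Of the 15, 10 had a mean under 1 CPM and 2 had a mean of 10 TPM or more. Among those under 1 CPM, Ptprc stood at 0.487 CPM in library 2 against 0.878 CPM in library 1. Adgre1 stood at 0.154 CPM in library 2 against 0.180 CPM in library 1, and Cd3e and Itgam had 1 or 2 reads. Itgam is overlapped by another gene over 68.7% of its exon length, so its count is uncertain. Of 12 immune markers tested, 2 were called lower in library 2, Mrc1 and Lyz2. For this and the next lists, the shares over all genes tested were 2.4% called lower and 1.91% called higher. The endothelial list (7 of 10 detected) summed to 24.6 CPM in library 2 against 37.0 CPM in library 1. The mesenchymal list (5 of 10) summed to 11.4 CPM in library 2 against 17.1 CPM in library 1. In each, 2 of 10 tested genes were called lower in library 2. The acinar list (14 of 14) summed to 630 CPM in library 2, against 138 CPM in library 1, with all 14 called higher. The alpha-cell list (7 of 8) summed to 1176 CPM in library 2 against 1414 CPM in library 1, with no call among 8 tested. The delta-cell list (6 of 6) summed to 1250 CPM in library 2 against 1685 CPM in library 1, with 1 of 6 tested called lower. The ductal list (7 of 8) summed to 1422 CPM in library 2 against 1097 CPM in library 1, with no call among 8 tested. The beta-cell list had no call among its 10 genes. Whether the other cell types have a part in the ratios of Lepr, Alox15, Il1rap, Nfkbia and Tnfaip3 was not tested.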

How the data were processed

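RNA was sequenced from 2 libraries of sorted beta cells of 1 mutant group. Per the file headers, the deposited tables hold raw read counts, CPM and TPM (scaled by gene length) for 55487 genes. GRCm38.p6 was the build, and the tools were cutadapt 2.10, STAR 2.7.8a and featureCounts 2.0.2, per the submitters' processing notes. Parameters, strand setting and the treatment of multi-mapping reads were not given in the sources used here. Per the labels, TruSeq DNA kits were used, which do not mark strand. The deposited CPM equals the count over the library total, with a largest difference of 1.8e-12.

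Gene positions and overlaps came from GENCODE M21, in which 55227 identifiers were found. Uncertain counts were those of 7 members with more than 5% of 50-base exon words shared with other genes. A gene was detected at 1 CPM in both libraries. Each gene with 10 or more reads summed was tested by a two-sided exact binomial test of its reads, with the library totals as the null share and Benjamini-Hochberg adjustment over 20681 genes, and called at an adjusted p under 0.05 and a 2-fold CPM ratio with 0.5 read added. This compares the reads of 2 libraries, not conditions. edgeR's quasi-likelihood test needs a second group and could not be fitted. Intervals are at 95%, exact binomial (Clopper-Pearson). These and the limit of 3 reads for a count of 0 (0.0769 CPM in library 2, 0.0599 CPM in library 1) cover counting error only. Lists are described by counts and medians, and no list was tested. The members and lists were chosen with earlier results of these data known. All members are accounted for; in full are given called members and the 3 highest of each role, and of each further list the 3 highest by mean TPM and the called genes with the 3 largest absolute log2 ratios, except 1 called gene whose values are not reported here. Genes named outside this rule were chosen after their values were seen.

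Alternatives were TMM scaling, median-of-ratios scaling, totals without the 10 most abundant genes, other read filters, 2 reads added, a 1.5-fold limit, edgeR's exact test, other detection limits, CPM in place of TPM, and each library alone. The test was run on simulated counts that varied between libraries by counting error alone, so that check does not cover the spread between these libraries. Tools were Python 3.11.15, NumPy 2.4.6, pandas 2.3.3, SciPy 1.17.1, statsmodels 0.14.6, R 4.3.3 and edgeR 4.0.16.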

Additional observations from a re-analysis of the deposited data

How the results depend on the processing

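The main counts were 2 members called (Lepr higher, Alox15 lower in library 2) and 892 genes called over all. With TMM scaling 1 member was called, Lepr, and 0 lower, because the log2 ratio of Alox15 became −0.99. edgeR's exact test, which used the common dispersion of 0.0327 between the libraries, called 1 member, 0 lower, and 213 of all genes. The dispersion came from both libraries taken as a single group, so it includes the differences tested. With a 1.5-fold limit 6 members were called, 3 higher (Lepr, Nfkbia and Tnfaip3) and 3 lower (Alox15, Alox12 and Il1rap), against 1664 of all genes (8.05%). A filter at a mean of 1 CPM left 356 genes called (2.55%), with Lepr and Alox15 both still among them. Lepr was called in all 8 alternatives and Alox15 in 6 of them. Directions changed in 4 cases, all close to equality or at few reads. With TMM scaling the log2 ratio was 0.013 for Il1r1 and 0.0044 for Traf3. The log2 ratio of Nfkb1 over Nfkb2 ranged between −0.14 in library 2 alone and 0.15 in library 1 alone, and that of Cxcl16 over Cxcl1 between −0.41 in library 2 alone and 1.44 in library 1 alone. The cause was not tested. The median level of the members was 24.4 when CPM, which is not scaled by length, replaced TPM. With the same replacement, the log2 ratios of 15 pairs moved by more than their SD between the libraries. Ripk1 over Ripk3, for example, went from 25.4-fold to 92.4-fold and Ikbkb over Chuk from 0.178 to 0.668. Members detected numbered 33 at 5 CPM and 34 at 1 TPM and in each library alone. The median log2 ratio of the members stayed between 0.03 and 0.07. No paired analysis was possible because there is only 1 group. Depth limits the 10 members under 1 CPM.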

Other observations

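Some values fall outside the comparisons above. C1qa, a complement gene of macrophages, stood at 92.4 TPM in library 2 against 103 TPM in library 1. C1qb, which encodes a partner chain of the same complex, stood at 0.706 TPM in library 2 against 1.06 TPM in library 1, and C1qc at 0.181 TPM in library 2 against 0.484 TPM in library 1. C1qa made up most of the summed level of the immune list. Tnf, the ligand of Tnfrsf1a, had 6 reads in each library, and Il6, the ligand of Il6ra, had 5 reads in library 2 and 3 in library 1. Cd14, the co-receptor of Tlr4, averaged 4.03 ± 1.43 TPM and Ly96, another partner of Tlr4, 15.6 ± 1.99 TPM (SD, n = 2), both above Tlr4 itself at 0.0503 TPM in library 2 against 0.119 TPM in library 1. The growth-hormone receptor Ghr stood at 274 CPM in library 2 against 247 CPM in library 1. Among enzymes that make other eicosanoids, the cyclooxygenases Ptgs1 and Ptgs2 had 3 reads (Ptgs1) and 14 reads (Ptgs2) in library 2 against 11 reads (Ptgs1) and 22 reads (Ptgs2) in library 1, whereas the prostaglandin E synthase Ptges stood at 38.2 CPM in library 2 against 37.1 CPM in library 1.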
